A study of Mus musculus with 2 samples.

Results

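Natural killer (NK) cells and type 1 innate lymphoid cells (ILC1) of the mouse colon were sought in a pair of droplet single-cell RNA sequencing libraries as 117 barcodes of 19998 in all, 48 of 9855 in the wild type library and 69 of 10143 in the library labelled transgenic. A barcode is one droplet's tag and stands for one cell in most cases. The members were chosen by their own counts: at least 1 UMI (unique molecular identifier, a counted RNA molecule) of Ncr1 or Klrb1c, 0 UMIs of the T cell receptor chain genes Cd3d, Cd3e and Cd3g, under 3 UMIs of C1qa, C1qb and C1qc (macrophage complement genes) together, under 5% of UMIs on mitochondrial genes and under 5% on each of the Igh, Igk and Igl immunoglobulin genes. Ncr1 encodes the activating receptor NKp46 and Klrb1c encodes NK1.1, so these genes, the Cd3 genes and the C1q genes are reported only as a description. The cells came from C57BL/6 mice aged 8 weeks whose colitis was induced with 2.0% dextran sulphate sodium (DSS), an epithelial toxin, in drinking water for 7 days, followed by 7 days of water without it and collection on day 14. Live CD45+ cells of the colon lamina propria were sorted, which takes in all white blood cells. One library was from wild type mice and one from mice described as overexpressing E4BP4 in macrophages only. The promoter of the transgene and the number of animals per library are not given in the sources used here, and with 1 library per genotype no difference was tested and genotype and library cannot be told apart.

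NK cells and ILC1 are lymphocytes without a rearranged antigen receptor that release interferon gamma and chemokines, and NK cells also kill target cells with perforin and granzymes. They read the health of neighbouring cells through activating receptors such as NKp46 and NKG2D and inhibitory receptors such as Ly49 and CD94/NKG2A, many encoded in one gene cluster on chromosome 6. Circulating NK cells express Eomes and S1pr5 and recirculate, whereas ILC1 stay in tissue and often carry CD49a, CXCR6 and the interleukin-7 receptor. E4BP4, encoded by Nfil3, is itself a transcription factor that NK cells need in order to develop.

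The members held 237890 UMIs in the wild type library and 255458 in the library labelled transgenic, with medians of 3634 and 2868 UMIs and 1549.5 and 1290 genes per barcode. Values are followed by exact 95% intervals, which account for counting error alone because cells of 1 library are not replicates. Levels are in CPM, the UMIs of a gene per 1e+06 summed UMIs of a group of barcodes, in which fewer cells expressing a gene and less RNA per cell cannot be told apart. The libraries shared 142 barcode sequences, 4 of which were members in one library, and none was a member in both. Nfil3 did not check the label: in the deposited cluster richest in the macrophage gene C1qa (86.6% and 89.7% of cells) the wild type level was 84.4 CPM (72.8 to 97.3) and that of the library labelled transgenic 73.8 CPM (65.3 to 83.1), and the part of the transcript that a transgene would carry is not known here. Free RNA also differed between the libraries. Among cells of deposited cluster 0, where 98.9% and 99.2% held the B cell gene Cd79a, a UMI of the neutrophil gene S100a9 was present in 42.7% and 2.50%, and a UMI of Ccl5 in 3.65% and 14.2%.

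Most members, and not all, had a UMI of a further gene that NK cells express. Nkg7, a granule protein gene of NK cells and cytotoxic T cells that the rule did not use, had a UMI in 29 of the 48 wild type members. In the library labelled transgenic it had one in 46 of the 69, which made 75 of 117 in all. Nkg7 does not part NK cells from T cells, as it had a UMI in 264 of 434 and 537 of 706 CD3-positive cells of cluster 4. The same gene had a UMI in 0.913% and 2.77% of cluster 0 cells, the level that free RNA can give. Of these 75, 42 lay in deposited cluster 4 (15 and 27), in which 95.4% and 95.3% of cells had a Cd3 UMI, and 22 lay in cluster 2 (9 and 13). The other 42 members had no Nkg7 UMI, and only 1 of them lay in cluster 4. They included 3 and 11 in cluster 2, where 71.4% and 73.9% of cells had a Cd3 UMI. Another 8 lay in cluster 0 and 3 in cluster 3, where 97.3% of wild type cells held the monocyte and macrophage gene Lyz2. Summed over the Nkg7-negative members, Lyz2 had 437 and 16 UMIs, S100a9 435 and 189, the mast cell protease gene Mcpt1 129 and 539, and Gzma only 1 and 3. At least one clear sign of another lineage (2 or more UMIs of Cd79a or Lyz2, or 10 or more of S100a9, Cst3, H2-Aa or Mcpt1 and Mcpt2 together) was seen in 28 of the 42 Nkg7-negative members and in 13 of the 75 Nkg7-positive members. These cutoffs were chosen after the values were seen. T cell receptor transcripts were also present: a UMI of Trac, Trbc1 or Trbc2 was present in 38 of the 75 Nkg7-positive members (11 and 27) and in 7 of the 42 Nkg7-negative ones. Trbc1 was seen in 0.083% and 0.447% of cluster 0 cells, 2.56% and 8.23% of cluster 1 cells and 0.463% and 1.20% of cluster 6 cells. Innate lymphoid cells can transcribe Trbc1 without a rearranged receptor, and whether some of the 38 are T cells with no Cd3 UMI was not tested. The name NK cell and ILC1 is used below only for the 75 Nkg7-positive members, with these limits, and the 117 are called Ncr1/Klrb1c barcodes.

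**Figure D1:**
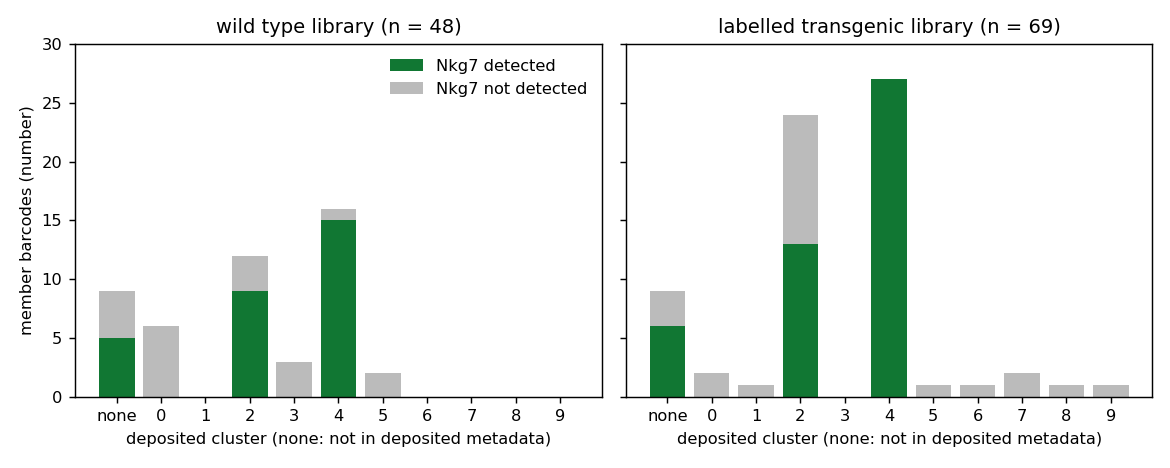
Number of Ncr1/Klrb1c barcodes (vertical axis) in each deposited cluster and outside the deposited metadata (none), in the wild type library and in the library labelled transgenic, stacked as Nkg7-positive (green) and Nkg7-negative (grey). Clusters 4 and 2 hold most Nkg7-positive members, with 15 and 9 in the wild type library and 27 and 13 in the other, and the Nkg7-negative members are spread over many clusters.

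At the edge of the rule, 22 and 27 members had exactly 1 UMI of Ncr1 and Klrb1c together, and Nkg7 was present in 6 and 9 of these. Of the 26 and 42 members with 2 or more such UMIs, 23 and 37 had Nkg7. Just outside it, 3 and 8 barcodes were left out by a single Cd3 UMI, 67 and 123 by 2 or more, and 2 and 7 by 3 or more C1q UMIs. Members with 1 or 2 C1q UMIs numbered 8 and 16. As a background for the rule, 6 of 2410 cells of cluster 0 (0.249%) had a UMI of Ncr1 or Klrb1c in the wild type library. In the other it was 2 of 2236 (0.0894%), at medians of 2445 and 2235 UMIs. This background was not uniform. In cluster 1 it was 2 of 664 (0.301%) and 14 of 1106 (1.27%), and in cluster 6 it was 1 of 648 (0.154%) and 2 of 167 (1.20%). These counts were made without the rule's other limits, and members in clusters 1 and 6 numbered 0 in the wild type library and 1 each in the other.

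The Ncr1/Klrb1c barcodes made up 0.718% (0.530% to 0.950%) of the 6688 wild type barcodes within the mitochondrial, immunoglobulin and C1q limits. In the library labelled transgenic they made up 1.06% (0.830% to 1.35%) of 6479. The ratio of these shares was 1.48 (1.01 to 2.19). Nkg7-positive members were 0.434% and 0.710%, a ratio of 1.64 (1.01 to 2.70). Depth differed between the libraries, and after each barcode was thinned to 1000 UMIs, with 714 and 735 shallower barcodes left out, the rule found 28 of 5974 and 41 of 5744, a ratio of 1.52 (0.919 to 2.56). The Cd3 genes were thinned too, so barcodes with Cd3 UMIs at full depth could enter these counts. The C1q, mitochondrial and immunoglobulin limits were applied at full depth. Against CD3-positive cells of cluster 4, which numbered 434 and 706, there were 11.1 and 9.77 members per 100 cells, a ratio of 0.884 (0.603 to 1.31). The direction of the share thus depended on what it was counted against.

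Within the Nkg7-positive members, receptors of the NK gene complex set the NK cells and ILC1 apart from their closest neighbours, the CD3-positive T cells of cluster 4. Because Ncr1, Klrb1c and the Cd3 genes chose the members, their own differences follow from the rule, and the others are a description. Of 2663 genes with enough counts, 96 (3.6%) were at least 2-fold higher than in CD3-positive cells in both libraries and 93 (3.49%) at least 2-fold lower. Ncr1 and Klrb1c are among the higher genes and the Cd3 genes among the lower. Ncr1 (chr7:4337724-4345164 of mm10, plus strand) stood at 548 and 456 CPM against 13.1 and 14.6 in CD3-positive cells, and Klrb1c (chr6:128778485-128789215, minus strand) at 486 and 353 against 48.9 and 45.8. All 26 Klr genes listed lie on chromosome 6, and 21 of them were detected in Nkg7-positive members.

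Among activating receptors and their adaptors other than the rule genes Ncr1 and Klrb1c, 4 of 15 measured genes were at least 2-fold higher in both libraries and 1 was lower. Klrk1, which encodes NKG2D, stood at 463 and 574 CPM against 93.6 and 110 in CD3-positive cells. Tyrobp, the adaptor DAP12 that carries the signal of several activating receptors, stood at 2324 and 2253 CPM against 560 and 752. The lower gene was Cd247, the CD3 zeta chain shared by T cells and NK cells, at 0.427 and 0.390 of the CD3-positive level. Among inhibitory receptors 8 of 17 were higher and 3 lower. The Ly49 gene Klra8 (chr6:130115226-130129898, minus strand) stood at 378 and 108 CPM against 2.98 and 2.37 in CD3-positive cells, and Klra4 at 247 and 159 CPM against 0 and 4.34. Klrc1, which encodes NKG2A, stood at 278 and 338 CPM against 57.9 and 41.8, and the 3 lower genes were Pdcd1, Lag3 and Cd96. These 3 were measured only through their level in CD3-positive cells. The Klra and Klrb1 genes have near-identical copies, so how reads were divided among them is uncertain.

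Of 14 measured cytotoxic granule genes, 4 were at least 2-fold higher in both libraries and none was lower. Prf1, the pore-forming protein perforin (chr10:61297833-61304680, plus strand), stood at 579 and 282 CPM against 10.7 and 26, the widest wild type ratio of the 4. The granzyme inhibitor gene Serpinb9 stood at 456 and 312 CPM against 48.3 and 54.1. Gzma, granzyme A, did not separate the populations in one direction: it was at 5250.3 CPM in wild type members against 1871 in CD3-positive cells, and at 1910.3 against 3971 in the library labelled transgenic. Among cytokines and chemokines 3 of 14 were higher, namely Ifng, Ccl3 and Ccl4, and 3 were lower, namely Il17a, Il10 and Areg. The 3 lower genes were measured only through their level in CD3-positive cells. Il17a, the T helper 17 cytokine, had 0 UMIs in Nkg7-positive members of either library and stood at 1325 and 715 CPM in CD3-positive cells.

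Of 18 measured transcription factors, 4 were higher (Eomes, Tbx21, Irf8 and Bhlhe40) and 3 lower (Ikzf2, Rora and Bcl11b), with median log2 ratios of -0.04 and -0.24. Rora and Bcl11b were measured only through their level in CD3-positive cells. Eomes, which NK cells use and most ILC1 lack, stood at 84.9 and 81.9 CPM against 4.77 and 7.50, and Tbx21, the T-bet gene of both lineages, at 201 and 154 against 44.7 and 63.9. Irf8 stood at 957 and 410 CPM against 54.9 and 69.4. Of 12 conventional NK cell genes, 7 were higher and none lower, with a median log2 ratio of 2.66 and 2.52 against -0.03 and 0.01 over all genes measured. Of 15 ILC1 genes, Gzmc was higher and Rora, Nt5e, Cxcr6 and Itgae were lower, with a median of -0.57 and -0.64. Of these lower genes only Cxcr6 had enough UMIs in the members themselves. Of 17 T cell genes other than the Cd3 genes of the rule, 11 were lower, among them Lat at 30.9 and 51.2 CPM against 505 and 426. Of the 11 only Trbc2, with 6 and 16 UMIs, had enough UMIs in the members themselves.

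**Figure D2:**
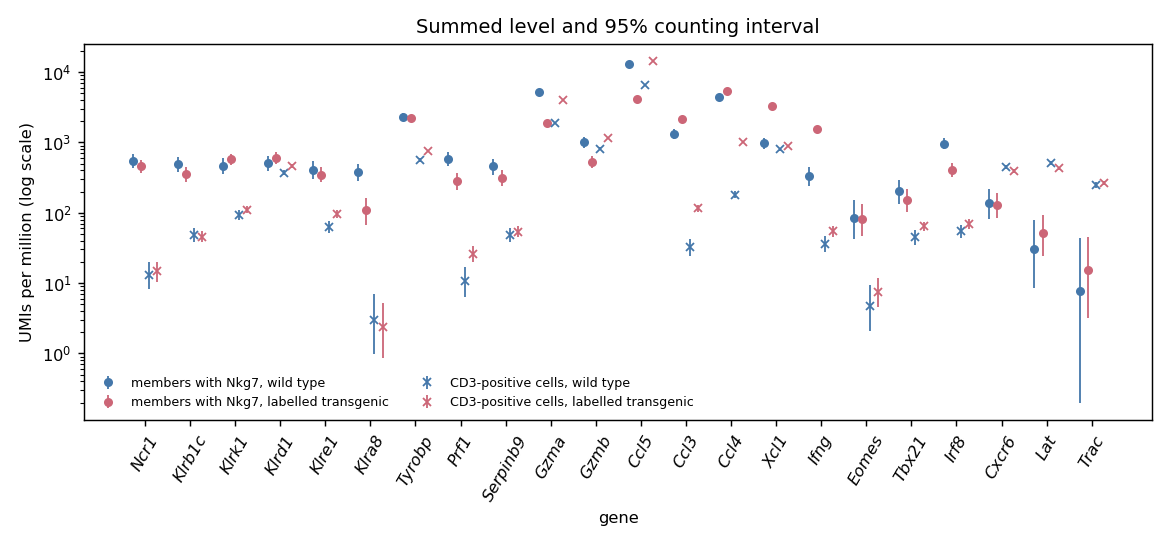
Level in Nkg7-positive members and in CD3-positive cells of cluster 4 for named genes, in CPM of summed UMIs on a log axis, by library, with exact Poisson 95% intervals. Prf1 and Eomes lie far above the CD3-positive cells in both libraries, while Gzma and Ccl5 are above them in the wild type library and below them in the other. Ncr1 and Klrb1c also lie far above, but these genes chose the members.

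When all 117 Ncr1/Klrb1c barcodes were compared with the CD3-positive cells, 227 of 3969 genes (5.72%) were at least 2-fold higher in both libraries and 136 (3.43%) lower. The leading genes mixed NK genes (Klra8, Klra4, Ncr1) with the mast cell genes Mcpt1, Mcpt2 and Cpa3 and the myeloid genes Clec4e, Fn1 and Cd14. In the lists, 5 of 6 measured B cell and plasma cell markers, 5 of 5 mast cell and basophil markers and 3 of 3 neutrophil markers were higher. The Nkg7-positive members had 2 of 5, 0 of 2 and 0 of 1 higher. Their B cell markers were Cd79a and Ms4a1, and Cd79a had 87 and 16 UMIs in them. Outside these lists, further genes of other lineages stayed higher in the Nkg7-positive members in both libraries. The mast cell gene Cma1, with 16 and 9 UMIs, had ratios of 104 and 38.9 to the CD3-positive level. The antigen presentation genes H2-Aa (5.83 and 12.2), Cd74 (6.65 and 8.93) and H2-DMb2 (11.1 and 7.79) were higher as well. The part of these other-lineage transcripts in the remaining differences was not tested.

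The NK cells and ILC1 varied among themselves in Gzma. Split after the values were seen by at least 1 Gzma UMI (chr13:113093825-113100981, minus strand), 15 wild type and 17 other members were Gzma-positive and 14 and 29 were Gzma-negative, with median depths of 3449 and 2997 UMIs against 4120 and 3130. Since one gene chose the split, the following differences are a description, and free RNA put a Gzma UMI in 1.54% and 5.64% of cluster 0 cells. Of 1183 genes measured, 31 (2.62%) were at least 2-fold higher in Gzma-positive members in both libraries and 36 (3.04%) at least 2-fold lower. Here too a gene could be measured through the level in the Gzma-negative members alone, which allows a lower call but not a higher one. Of 10 measured conventional NK cell genes 9 were higher, Gzma itself among them, and none lower, and of 8 measured ILC1 genes none was higher and 6 were lower. Prf1 was found in 14 of 15 and 10 of 17 Gzma-positive members against 3 of 14 and 10 of 29 Gzma-negative members, at 1027 and 567 CPM against 66.3 and 107. Eomes was found in 8 and 10 Gzma-positive members against 1 and 2. S1pr5, a receptor for exit from tissue, was found in 6 and 4 Gzma-positive members and in no Gzma-negative member of either library. Irf8 (1677 and 797 CPM against 133 and 173) and Klf2, a regulator of lymphocyte recirculation (535 and 797 CPM against 199 and 157), lay on the same side. The other NK genes of the list that were higher included the Ly49 genes Klra4, Klra7, Klra8 and Klra9.

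The 6 ILC1 genes that were higher in Gzma-negative members were Cxcr6, Il7r, Ltb, Inpp4b, Tmem176a and Tmem176b. Cxcr6, a chemokine receptor of resident lymphocytes, was found in 7 of 14 and 15 of 29 of them against 0 of 15 and 1 of 17 Gzma-positive members. Kit was found in 4 and 15 against 2 and 1, and Il7r, the interleukin-7 receptor, in 5 and 11 against 1 and 1. Tmem176b was at 464 and 536 CPM in the Gzma-negative members against 57.8 and 94.5, and Ltb, lymphotoxin beta, at 646 and 627 against 101 and 270. Xcl1, a chemokine that draws cross-presenting dendritic cells, stood higher in Gzma-negative members, at 1541 and 4472 CPM against 463 and 1472. A single Gzma-negative barcode of the library labelled transgenic held 302 of its Xcl1 UMIs, and without it the 4472 CPM became 2106, less than 2-fold above 1472. Both genes had a UMI in 8 and 12 members, Gzma alone in 7 and 5, Xcl1 alone in 12 and 23, and neither in 2 and 6. Ncr1 itself was at 506 and 486 CPM in Gzma-positive members and 596 and 437 in Gzma-negative members, with no common direction.

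**Figure D3:**
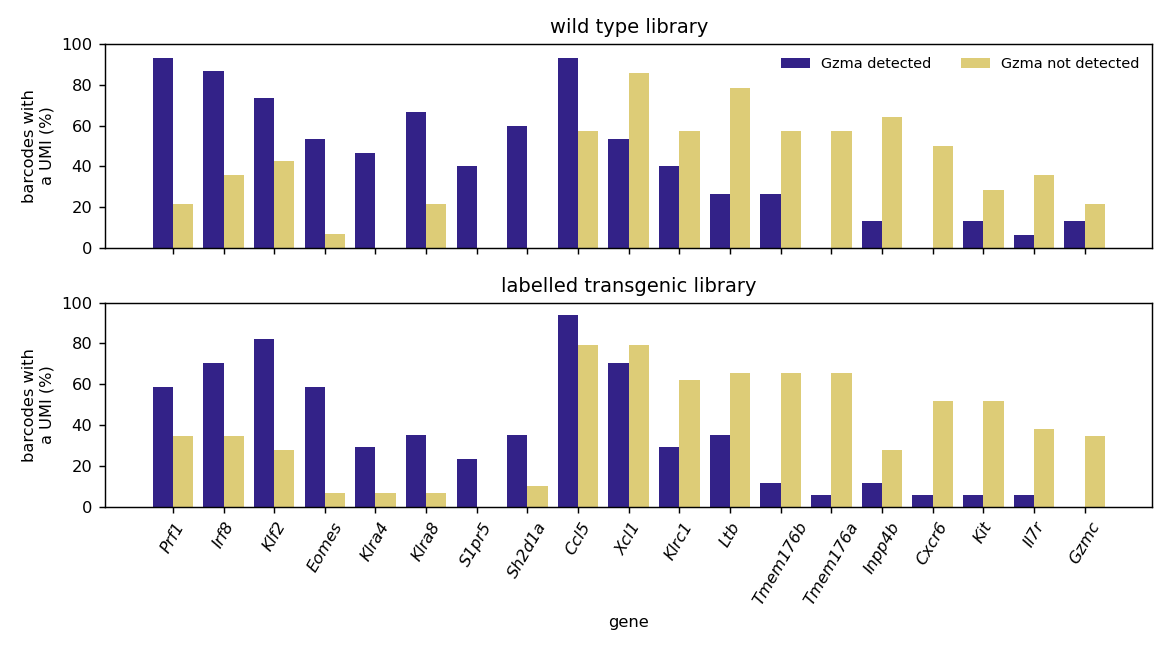
Percent of barcodes with at least 1 UMI of each named gene (vertical axis) in Gzma-positive and Gzma-negative Nkg7-positive members, with the wild type library above and the library labelled transgenic below. Prf1, Irf8, Klf2 and Eomes are found in a larger share of Gzma-positive members in both libraries, and Xcl1, Ltb, Tmem176b, Cxcr6, Kit and Il7r in a larger share of Gzma-negative members in both.

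**Figure D4:**
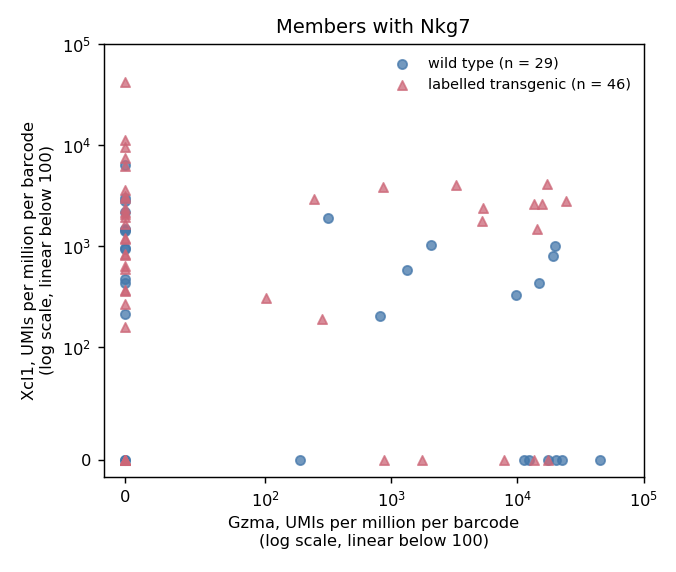
Gzma (horizontal) against Xcl1 (vertical) in each Nkg7-positive member, in CPM per barcode on log axes that are linear below 100, with circles for wild type and triangles for the library labelled transgenic. Members with Xcl1 and no Gzma number 12 in the wild type library and 23 in the library labelled transgenic, and members with Gzma and no Xcl1 number 7 and 5.

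Single markers that are often used to part NK cells from ILC1 were each found in few members. Eomes was found in 9 and 13 of the 117 Ncr1/Klrb1c barcodes and Itga1, which encodes CD49a, in 8 and 9, with both in 1 member of each library. Itga1 was thus in 1 of 9 and 1 of 13 Eomes-positive members against 8 of 48 and 9 of 69 of all members, counts too small to tell these shares apart. Gzma was present in 8 and 10 of the Eomes-positive members, and Cxcr6 in none of them. Most members, 32 and 48, had neither Eomes nor Itga1, which at these depths does not show that the genes were silent. Over all members the 13 listed genes of group 3 innate lymphoid cells, Kit and Ahr among them, had 128 and 119 UMIs, and the 13 of group 2 cells had 25 and 78, of which Csf2 made up 4 and 53, with 42 of the 53 in 1 barcode. The signature cytokine genes were at or near 0, with an Il22 UMI in 1 and 0 members and 0 UMIs of Il17f, Il5 and Il13 in both libraries. Both rule genes were present in 16 and 24 members (15 and 22 with Nkg7), Klrb1c without Ncr1 in 21 and 25 (8 and 13 with Nkg7), and Ncr1 without Klrb1c in 11 and 20 (6 and 11 with Nkg7).

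Between the libraries, most receptor and granule genes of the Nkg7-positive members stayed short of the 2-fold threshold, and Gzma, Prf1 and Gzmc were past it. In these members 80 of 2341 genes (3.42%) were at least 2-fold higher in the library labelled transgenic with an interval leaving out 1, and 67 (2.86%) were lower. Nkg7 stood at 2247 CPM in the wild type library and 2223 in the other, a ratio of 0.989 (0.851 to 1.15). Since an Nkg7 UMI chose these members, this ratio does not show equal levels. Over all Ncr1/Klrb1c barcodes the ratio was 1.39 (1.19 to 1.62) for Nkg7, 1.91 (1.40 to 2.62) for Klrk1 and 1.69 (1.25 to 2.30) for Klrd1, which encodes CD94. Among the Nkg7-positive members it was 0.970 (0.835 to 1.13) for Tyrobp, 1.24 (0.897 to 1.72) for Klrk1 and 1.18 (0.862 to 1.62) for Klrd1. Of 17 measured activating receptor genes 1 was lower and none higher. The lower one was Klrc2, the NKG2C gene, with 22 and 10 UMIs and a ratio of 0.301 (0.127 to 0.664). Of 12 inhibitory receptor genes 2 were lower, Klra8 with 49 and 21 UMIs and a ratio of 0.284 (0.162 to 0.483), and Klra7 with 42 and 27 UMIs and a ratio of 0.426 (0.253 to 0.708). The Klra8 ratio was 0.259 (0.137 to 0.469) in the 23 and 39 Nkg7-positive members with none of the signs of another lineage, and 0.937 (0.360 to 2.72) in the 10 and 28 left under a stricter limit of fewer than 3 UMIs of other lineages' markers (Jchain not counted). Its markers include S100a9, seen in 42.7% and 2.50% of cluster 0 cells, and Mcpt1 and Mcpt2, seen in 4.94% and 17.8%. The limit can thus drop cells for free RNA, unequally between the libraries, and it kept 10 of 29 and 28 of 46. Its effect on the ratios through free RNA was not tested. Under this stricter limit Klra7 was at 0.601 (0.220 to 1.72) and Klrc2 at 0.437 (0.131 to 1.46), and both intervals held 1. Klrg1, a receptor of mature NK cells, had 17 UMIs in 8 wild type members and 1 UMI in the other library.

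Gzma and Prf1 were lower in the Nkg7-positive members of the library labelled transgenic, and Gzmb was just short of the 2-fold threshold. Of 13 measured granule genes 2 were lower (Gzma and Prf1), 1 was higher (Gzmc), and the median log2 ratio of -0.02 lay near the 0.02 of all genes. Gzma per barcode ran from 0 through a median of 190 to 45538 CPM in the wild type library and from 0 through 0 to 24194 in the other, so the libraries overlapped over most of their range. The summed level was 5250.3 CPM against 1910.3, a ratio of 0.364 (0.320 to 0.413). Prf1 ran from 0 through 249 to 3839 CPM per barcode in the wild type library and from 0 through 0 to 4032 in the other, with a ratio of summed levels of 0.486 (0.337 to 0.698). Gzmb, granzyme B, had summed levels of 1004 and 528 CPM and a ratio of 0.526 (0.402 to 0.686). Ccl5, a chemokine that draws T cells and monocytes (chr11:83525778-83530518, minus strand), had medians of 8864 and 2803 CPM per barcode and a summed ratio of 0.318 (0.292 to 0.346). The calls for Gzma and Prf1 depended on which barcodes were kept. In the 23 and 39 members with none of the signs of another lineage the ratios were 0.385 (0.337 to 0.439) for Gzma, 0.445 (0.297 to 0.660) for Prf1, 0.666 (0.502 to 0.885) for Gzmb and 0.328 (0.299 to 0.360) for Ccl5. Under the stricter limit, which left 10 and 28, they were 0.844 (0.660 to 1.08), 0.841 (0.414 to 1.79), 2.27 (1.32 to 4.15) and 0.357 (0.311 to 0.409), so that of these 4 only Ccl5 stayed lower past the threshold and Gzmb was higher. After thinning to 1000 UMIs a Gzma UMI was present in 48.3% and 33.3% of members, and in 51.7% and 37.0% before.

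In CD3-positive cells the same 4 genes stood higher in the library labelled transgenic, with ratios of 2.12 for Gzma, 2.20 for Ccl5, 2.43 for Prf1 and 1.43 for Gzmb. The difference between both populations was not tested. Cells with a Cd8a or Cd8b1 UMI made up 30.6% and 48.3% of the CD3-positive cells, and within those the ratios were 1.31 for Gzma, 1.82 for Ccl5, 1.70 for Prf1 and 1.69 for Gzmb, against 3.11, 1.43, 2.92 and 0.786 in the CD3-positive cells without one. Free RNA of Gzma and Ccl5 was also more frequent in that library, in 5.64% and 14.2% of cluster 0 cells against 1.54% and 3.65%. Gzma-positive members were 15 of 29 (51.7%, 32.5% to 70.6%) in the wild type library and 17 of 46 (37.0%, 23.2% to 52.5%) in the other. These proportions were not compared directly, and no difference between them was shown. Within the Gzma-positive members the ratios were 0.552 (0.368 to 0.820) for Prf1, 0.266 (0.169 to 0.404) for Gzmb and 0.324 (0.292 to 0.359) for Ccl5. Within the Gzma-negative members they were 1.62 (0.5 to 6.81), 1.32 (0.842 to 2.11) and 0.629 (0.529 to 0.748). Cd79a also differed, with 70 UMIs in 6 wild type Gzma-positive members and 0 UMIs in those of the other library. Its part in these results was not tested.

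Ifng, Ccl3 and Ccl4 stood higher in the library labelled transgenic, but on 1 barcode. In Nkg7-positive members Ifng (chr10:118441046-118445892, plus strand) had 43 and 303 UMIs, in 12 and 16 members, and the median member of each library had none. The summed level was 332 and 1552 CPM, a ratio of 4.67 (3.39 to 6.59). A single member of cluster 4 with 7221 UMIs and 1912 genes held 269 of the 307 Ifng UMIs among all members of the library labelled transgenic, and also 302 of 652 Xcl1, 266 of 429 Ccl3, 489 of 1078 Ccl4, 42 of 53 Csf2 and 79 of 79 Ccl1 UMIs. Without that barcode the ratio in Nkg7-positive members was 0.545 (0.337 to 0.874) for Ifng, 0.616 (0.492 to 0.771) for Ccl3 and 0.683 (0.606 to 0.769) for Ccl4. Each of these ratios had been above 1 with it. The sum of the cytokine and chemokine list went from a ratio of 0.880 to 0.534.

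Xcl1 (chr1:164931644-164935527, minus strand) kept its direction without that barcode. It had a UMI in 20 of 29 and 35 of 46 members, with per-barcode values from 0 through a median of 476 to 6319 CPM in the wild type library and from 0 through 1346 to 41823 in the other. The ratio of summed levels was 3.45 (2.85 to 4.22) with all Nkg7-positive members and 1.92 (1.56 to 2.38) without the 1 barcode. It was above 1 in both parts of the Gzma split, in Gzma-positive members, at 3.18 (2.13 to 4.88), and in Gzma-negative members, at 2.90 (2.33 to 3.66), which became 1.37 (1.07 to 1.76) without the 1 barcode. In the 18 and 19 members with no Trac, Trbc1 or Trbc2 UMI it was 2.67 (1.77 to 4.09). In CD3-positive cells the ratio was 1.11. Gzmc, granzyme C, had 13 and 137 UMIs, all 137 in 10 Gzma-negative members, with a ratio of 6.99 (3.95 to 13.5) and of 3.76 (2.07 to 7.41) without the 1 barcode, which held 66. The 18 and 19 members with no Trac, Trbc1 or Trbc2 UMI held only 6 and 3 of the Gzmc UMIs.

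**Figure D5:**
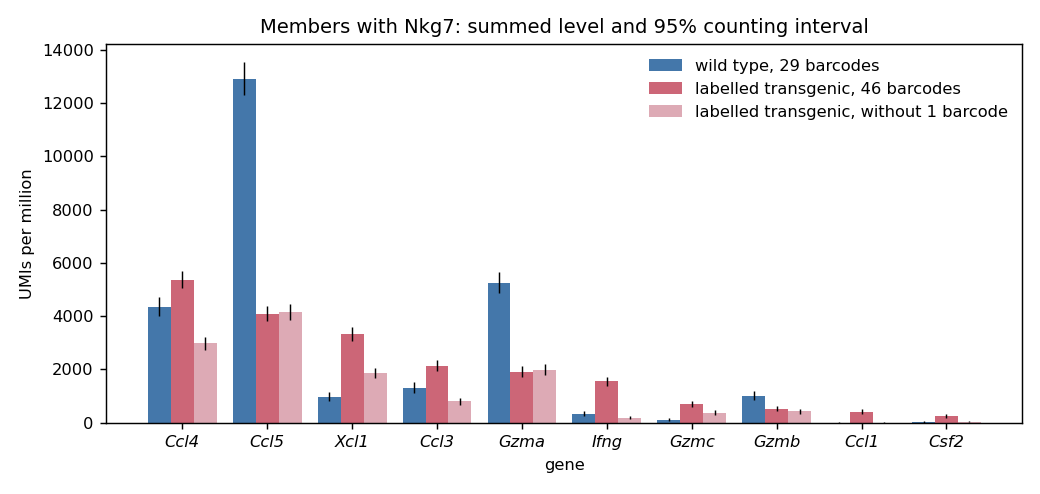
Summed level of named cytokine, chemokine and granzyme genes in Nkg7-positive members, in CPM from a zero baseline, for the 29 wild type members, the 46 members of the library labelled transgenic and these without the 1 barcode that holds most Ifng, with exact Poisson 95% intervals. Ifng, Ccl3 and Ccl4 go from above to below the wild type level when it is left out, while Gzma, Ccl5 and Gzmb stay below it and Xcl1 and Gzmc stay above it.

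Among transcription factors, Eomes had a ratio of 0.965 (0.420 to 2.30), Tbx21 of 0.765 (0.437 to 1.35) and Nfil3 of 0.758 (0.347 to 1.68), with 14 and 16 Nfil3 UMIs in 11 and 13 members. In each of these the interval holds both a clear fall and a clear rise. Irf8 was lower, at a ratio of 0.428 (0.319 to 0.571) in all Nkg7-positive members and of 0.475 (0.341 to 0.655) within the Gzma-positive ones. It was 0.254 (0.170 to 0.373) in members with none of the signs of another lineage and 0.847 (0.449 to 1.66) under the stricter limit. Ahr, a receptor for dietary and microbial ligands that gut innate lymphoid cells depend on, was higher with 7 and 34 UMIs and a ratio of 3.22 (1.41 to 8.61), with 0.947 (0.336 to 3.04) under the stricter limit, and Id2, which all innate lymphoid cells need, had a ratio of 1.65 (1.20 to 2.30). Of 15 measured transcription factors, Ahr was past the 2-fold threshold upwards and Irf8 downwards.

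As whole lists in the Nkg7-positive members, the conventional NK cell genes had 4 of 12 lower (Gzma, Irf8, Klra7 and Klra8) and none higher, with a summed ratio of 0.453 (0.412 to 0.498), and the ILC1 genes had 1 of 10 higher and none lower, with a summed ratio of 1.44 (1.25 to 1.67), which was 1.26 without the 1 barcode. These sums lean on single genes already described. Gzma held 680 of the 1084 wild type UMIs and 373 of the 740 other UMIs of the conventional NK cell list. Gzmc held 13 of 275 and 137 of 598 of the ILC1 list. The medians of these lists were -0.51 and 0.18 on the log2 scale, and that over all genes was 0.02. Of 11 class I and immunoproteasome genes none passed in either direction. Of 22 immediate early and heat shock genes 2 were lower, Nfkbia at 0.475 (0.402 to 0.560) and Zfp36 at 0.445 (0.348 to 0.567), both feedback inhibitors of inflammatory signalling. Without the members that bear signs of another lineage they were at 0.516 and 0.532, short of the 2-fold threshold. Of 6 cell cycle genes 2 were higher, Stmn1 with 16 and 53 UMIs and Tuba1b with 12 and 47, and 27 and 26 of these were in a single barcode each. In members with none of the signs their ratios were 1.19 (0.392 to 3.98) and 1.55 (0.548 to 4.96). Trbc1, a T cell receptor constant gene, had 7 and 32 UMIs in 7 and 20 members, a ratio of 3.03 (1.31 to 8.14). After thinning it was present in 6.90% and 17.8% of members. Members of the whole rule with no Trac, Trbc1 or Trbc2 UMI numbered 35 and 37, a ratio of shares of 1.09 (0.669 to 1.78).

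Genes ranked first in the Nkg7-positive members often rested on few barcodes. Of the top 10 higher genes, Cst3 (18 and 610 UMIs) had 546 of them in 1 barcode, and Bex3, a small adaptor protein, was spread instead over 6 and 29 members with 8 and 59 UMIs, a ratio of 4.89 (2.33 to 11.9). Of the top 10 lower genes, Mcpt1 (204 and 5 UMIs) and Mcpt2 (118 and 4) had 203 and 117 UMIs in 1 wild type barcode. Cd79a, Cd79b and Hvcn1, genes rich in B cells, followed with Ccl5, Gzma, Klra8, Nfkbia and the histone gene Hist1h1e. Over all 117 Ncr1/Klrb1c barcodes, 171 of 3566 genes (4.8%) were higher and 171 (4.8%) lower. The first lower gene there, the matrix protein gene Thbs1, had 107 and 0 UMIs with 74 in 1 barcode, and the mast cell gene Mcpt4 had 77 and 0, all in 1 barcode.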

How the data were processed

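Cell Ranger 5.0.0, Seurat 4.0 and the genome build mm10 are listed in the submitters' processing notes, with no role stated. The deposited tables hold raw UMI counts per gene and barcode, per the file headers, and the authors' deposited metadata give cluster numbers for part of the barcodes. Metadata columns of percent mitochondrial and immunoglobulin UMIs, deposited by the authors, were recomputed from the counts. Counts were summed over members per library and divided by the summed total, giving CPM. With 1 library per genotype no test was possible. All intervals are exact and at 95%: conditional binomial for ratios, Poisson for levels and Clopper-Pearson for shares. Between libraries genes needed 20 UMIs over both libraries. Against CD3-positive cells, and in the Gzma split, a gene was also measured where the comparison group's level would have given 20 UMIs. Between libraries a gene passed at a ratio of at least 2 or at most 0.5 with an interval leaving out 1, and against CD3-positive cells at that ratio in both libraries. The ratio and interval were tested on simulated data. Named genes were the listed genes that results turn on, the 10 each way with the interval bound farthest from 1, and the 15 each way against CD3-positive cells. The ranking left out antigen receptor segments, predicted models, and haemoglobin, ribosomal and mitochondrial genes. The members, the lists and the splits were chosen with earlier results of these data known. No doublet caller was used on the members, and 9 members in each library lie outside the metadata. All 349 listed genes were found, and coordinates came from an annotation of the same build. Python 3.11.15, numpy 2.4.6, pandas 2.3.3 and scipy 1.17.1 were used.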

Additional observations from a re-analysis of the deposited data

Results flagged for a closer look

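In 4 genes the members with Nkg7 and the CD3-positive cells of deposited cluster 4 differed in opposite directions between the libraries. The ratio of the library labelled transgenic over wild type was 0.364 for Gzma in the Nkg7-positive members against 2.12 in CD3-positive cells, 0.318 against 2.20 for Ccl5, 0.486 against 2.43 for Prf1 and 0.526 against 1.43 for Gzmb. Cells with a Cd8a or Cd8b1 UMI were 30.6% and 48.3% of the CD3-positive cells in the wild type library and the other. Under the limit of fewer than 3 UMIs of other lineages' markers (Jchain not counted), the Nkg7-positive ratios were 0.844 for Gzma, 0.357 for Ccl5, 0.841 for Prf1 and 2.27 for Gzmb. That limit counts genes whose free RNA differed between the libraries. With 1 library of each genotype the difference between the populations was not tested.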

How the results depend on the processing

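The member share ratio (1.48) was 7.23 with under 3 UMIs of other lineages, 2.75 with Jchain not counted among these and 0.884 per 100 CD3-positive cells. Genes higher and lower between libraries (171 each) numbered 272 and 265 at a minimum of 10 UMIs, 83 and 87 at 40, 80 and 67 in Nkg7-positive members, 80 and 59 in these without the 1 barcode with most Ifng, 41 and 21 under the limit without Jchain, 39 and 23 in Nkg7-positive members under it, and 55 and 32 in Nkg7-positive members with none of the signs of another lineage. Only those higher moved past 1.5 times in metadata members, to 105. The summed list ratio for activating receptors (0.965) was 1.04 in metadata members and as a mean over barcodes. That for inhibitory receptors (1.12) was 0.797 in Nkg7-positive members, 0.811 without the 1 barcode and 0.851 without the members that bear signs. That for granule genes (0.875) was 0.749, 0.719, 0.775 and, without Jchain in the limit, 1.23 in all members and 1.18 in Nkg7-positive ones. That for cytokines (1.20) was 0.880, 0.534, 0.735 in all members without the 1 barcode, 0.828 as a mean over barcodes, 0.994 without the members that bear signs, and 1.58 and 1.5 under the limit without Jchain. Against CD3-positive cells, genes higher (227) and lower (136) were 407 and 216 at 10 UMIs, 130 and 71 at 40 and 136 and 79 in metadata members, and those higher were 96 in Nkg7-positive members. Among single genes in all members without the 1 barcode and in Nkg7-positive members without it, Ifng reversed to 0.847 and 0.545, Ccl3 to 0.849 and 0.616 and Ccl4 to 0.881 and 0.683. Nkg7, at 1.39 in all members, was 0.989 in Nkg7-positive members and 0.990 in those without signs, both sets chosen on an Nkg7 UMI. Under the limit without Jchain, Gzmb was 2.14 in all members and 2.27 in Nkg7-positive ones, Klrk1 0.889 in the latter, and Gzma, Klra8 and Irf8 were 0.894, 0.992 and 0.984 in all members against 0.514, 0.551 and 0.554 without the limit. The CD3-positive denominator, the removal of the 1 barcode, the signs of another lineage and the limit without Jchain were chosen after seeing the data. The limit of under 3 UMIs of other lineages leaves 1 and 7 barcodes and gave no gene counts or list sums. With or without Jchain, that limit counts genes whose free RNA differed between the libraries. The cause of these changes was not tested, and 29 wild type and 46 other cells limit every value. No paired analysis was possible because each genotype has 1 library.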
